A study of Homo sapiens with 9 samples.

Results

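The HOX cluster genes encode the homeodomain transcription factors that lie side by side in the HOXA, HOXB, HOXC and HOXD clusters, and here they were followed in MDA-MB-231 breast cancer cells after stable knockdown of *ELOVL5* or of *IGFBP6*. A gene was taken as a member when 1 transcript cluster of the array carried its symbol and no other symbol. This gave 25 of the 39 HOX genes of the RefSeq table, among 22465 genes measured in this way. They were 1 of 11 HOXA genes (*HOXA2*), 8 of 10 HOXB genes (*HOXB1*, *HOXB2*, *HOXB5*, *HOXB6*, *HOXB7*, *HOXB8*, *HOXB9* and *HOXB13*), 9 of 9 HOXC genes (*HOXC4*, *HOXC5*, *HOXC6*, *HOXC8*, *HOXC9*, *HOXC10*, *HOXC11*, *HOXC12* and *HOXC13*) and 7 of 9 HOXD genes (*HOXD1*, *HOXD8*, *HOXD9*, *HOXD10*, *HOXD11*, *HOXD12* and *HOXD13*). Of the other 14 genes, 7 were named only on transcript clusters with several symbols and 7 were not analysed here, so the HOXA cluster was represented by a single gene.

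MDA-MB-231 is a mesenchymal-like human breast cancer line without estrogen and progesterone receptors. The cells of every group carried the same kind of lentiviral vector with a short hairpin RNA (shRNA). The hairpin was directed to *ELOVL5*, which encodes an elongase of polyunsaturated fatty acids, in the *ELOVL5* knockdown group, to *IGFBP6*, which encodes a secreted binding protein of the insulin-like growth factors, in the *IGFBP6* knockdown group, and to firefly luciferase in the control group (LUC). Each group was a single stable culture, from which 3 RNA samples were hybridised to 3 Human Transcriptome Arrays, 9 arrays in all. A difference between groups therefore cannot be told apart from a difference between cultures, and the spread behind each p-value is that of RNA samples from 1 culture. The knockdowns were visible on the arrays: *ELOVL5* had log2 intensities of 9.66, 9.67 and 9.57 in *ELOVL5* knockdown cells, against 11.25, 11.26 and 11.36 in LUC cells (log2 fold change -1.66, adjusted p = 8.71e-05). *IGFBP6* had 5.65, 5.30 and 5.56 in *IGFBP6* knockdown cells, against 6.13, 6.21 and 6.03 in LUC cells (log2 fold change -0.62, adjusted p = 0.00183), and its decrease was below 1.5 times without *IGFBP6* knockdown replicate 2 (-0.52) or LUC replicate 2 (-0.58).

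HOX proteins bind DNA through the homeodomain, usually together with cofactors of the TALE class (PBX, MEIS and PKNOX), and give cells their position along the body axis of the embryo. The order of the genes within a cluster follows the order in which they are used along that axis. Polycomb complexes keep the clusters silent through methylation of histone H3 on lysine 27, MLL complexes keep them active, and retinoic acid induces genes at the 3′ ends of the clusters. In breast cancer, *HOXB7*, *HOXB9*, *HOXB13* and the HOXC noncoding RNA *HOTAIR* have been studied as genes whose expression differs between tumors.

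In GRCh38.p14 coordinates, the HOXC cluster lies at chr12:53938831-54056030, only 0.84 Mb from the knocked-down gene *IGFBP6* (chr12:53097667-53102340). The HOXA cluster lies at chr7:27092993-27200091, the HOXB cluster at chr17:48528526-48728750 and the HOXD cluster at chr2:176087487-176190907. Within HOXC, RefSeq starts the records of *HOXC4*, *HOXC5* and *HOXC6* at the same base (54016888), so that the 3 genes overlap and their transcript clusters can share transcribed sequence. The region from 250 bases before to 50 bases after this start is shown because the 3 records share it. Of the 3 genes only *HOXC6* passed the test on adjusted p after *IGFBP6* knockdown. A promoter window was available for *HOXC4* and *HOXC5* and not for *HOXC6*, so the region is not given as the promoter of *HOXC6*. The strand is plus, the position is chr12:54016638-54016937, and capitals mark CpG dinucleotides, the sites of DNA methylation, of which there are 15.
*HOXC4* and *HOXC5* promoter: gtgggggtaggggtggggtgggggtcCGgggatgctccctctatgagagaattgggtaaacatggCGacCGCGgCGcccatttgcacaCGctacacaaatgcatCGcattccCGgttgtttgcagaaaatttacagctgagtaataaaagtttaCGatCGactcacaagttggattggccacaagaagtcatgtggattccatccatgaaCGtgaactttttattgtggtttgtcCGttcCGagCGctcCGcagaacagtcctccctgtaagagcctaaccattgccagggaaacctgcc

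The RefSeq table held a promoter window of this length for 10 of the 25 members, which made 9 distinct windows. They held 11 to 36 CpG dinucleotides (median 23), beside a median of 14 over 34943 windows of all genes, and their GC content was 46.3% to 74.3% (median 60.0%, beside 58.7%). The CCAAT box (CCAAT, either strand) was found in 7 of the 9 windows and in 34.6% of all windows. The letters of a PBX and HOX composite site (TGATTNAT, either strand) were found in 2 of the 9, those of *HOXA2* and *HOXD11*, and in 2.82% of all. TATAAA was found in 1, that of *HOXD13*, and in 11.6% of all.

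The clusters also carry microRNAs. The 5p arm of miR-196a, which is encoded in both HOXB and HOXC, and both arms of miR-615 are shown with the seed (bases 2 to 8) in capitals, because the transcript clusters of their genes are described below. The 5p arm of miR-196b, encoded in the HOXA cluster, is added because it shares its seed AGGUAGU with miR-196a.
hsa-miR-196a-5p: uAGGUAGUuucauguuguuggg
hsa-miR-196b-5p: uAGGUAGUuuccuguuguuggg
hsa-miR-615-5p: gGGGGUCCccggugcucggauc
hsa-miR-615-3p: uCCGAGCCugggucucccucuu
The seeds of the 2 arms of miR-615, whose gene lies within the *HOXC5* record, differ from that of miR-196 and from each other.

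Most HOX genes gave low signal in these cells. The values are log2 intensities after robust multiarray averaging (RMA), and a difference of 1 is a doubling. Over all transcript clusters and arrays the median was 5.02 and 66.9% of values were below 6. Of the 25 HOX genes, 21 were below 6 on all 9 arrays (3.45 to 5.70), 2 were at or above 6 on all arrays and 2 lay on both sides. Intensities depend on the probes of each transcript cluster and are not set against each other between genes. Where a transcript cluster gives only background, a change of its gene would not be seen.

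**Figure D1:**
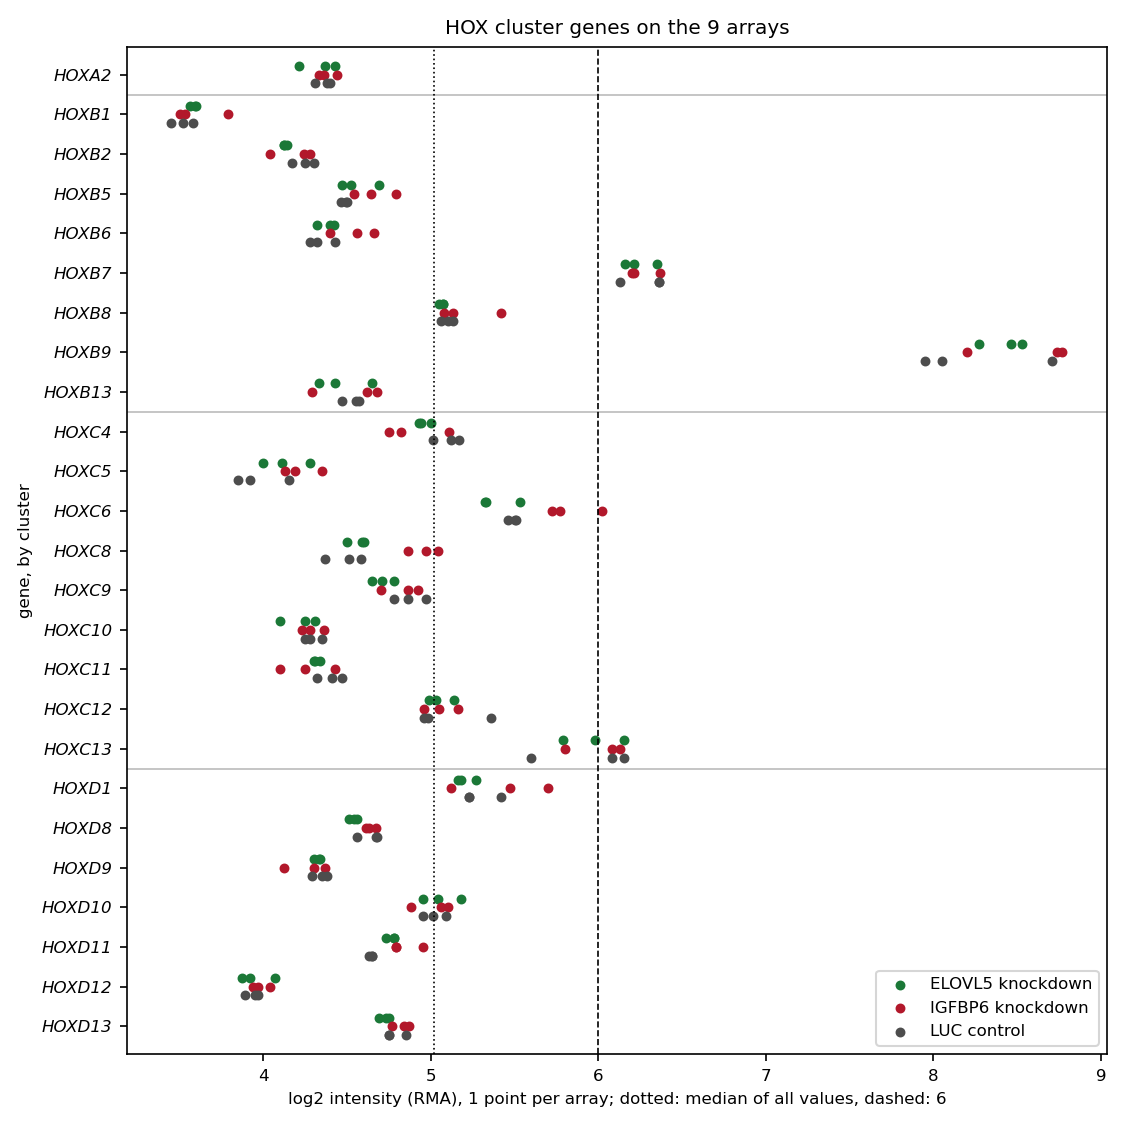
Log2 intensity (x axis) of the 25 HOX genes (y axis, by cluster) on each array, 1 point per array for *ELOVL5* knockdown, *IGFBP6* knockdown and LUC cells. The dotted line is the median of all values (5.02) and the dashed line is 6: only *HOXB7* and *HOXB9* lie at or above 6 on all 9 arrays, and the 3 groups overlap for most genes.

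The genes at or above 6 on all arrays were *HOXB9* and *HOXB7*, both of the HOXB cluster. *HOXB9* had 8.27, 8.46 and 8.53 in *ELOVL5* knockdown cells, 8.20, 8.77 and 8.74 in *IGFBP6* knockdown cells and 7.95, 8.05 and 8.71 in LUC cells. The 3 groups overlapped, since LUC replicate 3 stood beside the knockdown arrays, and *HOXB9* had the widest spread of the HOX genes (standard error of the difference 0.21). Its log2 fold change was 0.18 after *ELOVL5* knockdown (adjusted p = 0.847) and 0.33 after *IGFBP6* knockdown (adjusted p = 0.376), with 95% intervals of -0.28 to 0.65 and -0.13 to 0.80, which both reach past 1.5 times (0.58 on the log2 scale).

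*HOXB7* had 6.35, 6.21 and 6.16 in *ELOVL5* knockdown cells, 6.20, 6.37 and 6.21 in *IGFBP6* knockdown cells and 6.36, 6.13 and 6.36 in LUC cells. All 9 values lay within 6.13 to 6.37. Its log2 fold change was -0.04 (95% interval -0.27 to 0.18) after *ELOVL5* knockdown and -0.02 (-0.25 to 0.20) after *IGFBP6* knockdown, so that a change of 1.5 times in either direction lay outside both intervals.

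*HOXC13* and *HOXC6* lay on both sides of 6. *HOXC13*, a gene known for its role in hair and nail, had 5.79, 6.15 and 5.98 in *ELOVL5* knockdown cells, 6.13, 5.80 and 6.08 in *IGFBP6* knockdown cells and 6.15, 6.08 and 5.60 in LUC cells. Its groups overlapped. *HOXC6* reached 6.02 on 1 array, *IGFBP6* knockdown replicate 3.

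After *ELOVL5* knockdown, no HOX gene passed the test. A call needed an adjusted p under 0.05 together with a change of 1.5 times or more. None of the 25 was called, where 1.36% of all genes were called (0.439% of the genes whose mean was below 6). None passed at an adjusted p alone (1.74% of all genes, 0.56% of those with a mean below 6), nor at an unadjusted p under 0.05 (13.2% and 5.86%), by the moderated test of limma. The unmoderated fit gave 0 HOX genes called (0.418% of all genes in that fit) and 2 at an unadjusted p under 0.05 (8.08% of the genes whose mean was below 6), *HOXD8* and *HOXD11* (adjusted p = 0.416 and 0.436). The log2 fold changes were -0.16 (*HOXC9*) to 0.18 (*HOXB9*), with standard errors of 0.08 to 0.21 and a smallest adjusted p of 0.614. Their median was -0.03, beside -0.02 over all genes.

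The arrays of *ELOVL5* knockdown and LUC cells did not overlap for 3 HOX genes (23.7% of all genes). *HOXD11* had 4.78, 4.73 and 4.78 in *ELOVL5* knockdown cells, against 4.63, 4.65 and 4.65 in LUC cells, a difference of 0.12 (adjusted p = 0.674). *HOXB2* had 4.12, 4.12 and 4.14 in *ELOVL5* knockdown cells, against 4.30, 4.25 and 4.17 in LUC cells (-0.11, adjusted p = 0.741). *HOXC4* had 4.93, 4.94 and 5.00 in *ELOVL5* knockdown cells, against 5.12, 5.17 and 5.01 in LUC cells (-0.14, adjusted p = 0.712). All of these values were in the low range, and the differences were smaller than the fold threshold. For 24 of the 25 HOX genes the 95% interval of the change lay within 1.5 times in both directions (86.6% of all genes, 94.0% of those with a mean below 6), and *HOXB9* was the exception.

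After *IGFBP6* knockdown, *HOXC8* and *HOXC6* were higher by less than 1.5 times and no other HOX gene passed the adjusted p. None of the 25 was called, where 16.3% of all genes and 3.99% of those with a mean below 6 were called. At an adjusted p alone 2 were higher and 0 lower, where 26.6% of all genes passed (12.9% higher) and 8.36% of those with a mean below 6 (4.81% higher). At an unadjusted p under 0.05 there were 3 (36.6% of all genes, 14.9% of those with a mean below 6), the third being *HOXD11*. The unmoderated fit gave 0 HOX genes called (14.5% of all genes in that fit), 2 at its adjusted p, *HOXC8* (0.00865) and *HOXD11* (0.0384), where 23.1% of all genes and 7.98% of those with a mean below 6 passed, and 4 at an unadjusted p (36.9% of all genes). The share of HOX genes that passed was thus close to that of other genes of low signal.

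*HOXC8*, a gene of the middle of the HOXC cluster known in the patterning of the trunk, had 4.86, 4.97 and 5.04 in *IGFBP6* knockdown cells, against 4.51, 4.58 and 4.37 in LUC cells. The 2 groups did not overlap. Its log2 fold change was 0.47 (SE 0.09, 95% interval 0.27 to 0.67, adjusted p = 0.00451), with all 9 values below 6.

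*HOXC6*, which lies beside it, had 5.72, 5.77 and 6.02 in *IGFBP6* knockdown cells, against 5.50, 5.46 and 5.51 in LUC cells. These groups did not overlap either. The log2 fold change was 0.35 (SE 0.10, 95% interval 0.12 to 0.58, adjusted p = 0.043). The adjusted p of *HOXC6* was above the threshold (up to 0.145) when *ELOVL5* knockdown replicate 1, 2 or 3, *IGFBP6* knockdown replicate 2 or 3, or LUC replicate 1, 2 or 3 was left out, and in the unmoderated fit (0.0678). The transcript cluster that names *HOXC4*, *HOXC5* and *HOXC6* together had 5.04, 5.08 and 5.10 in *IGFBP6* knockdown cells, against 5.02, 4.97 and 4.91 in LUC cells (0.11, adjusted p = 0.454).

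**Figure D2:**
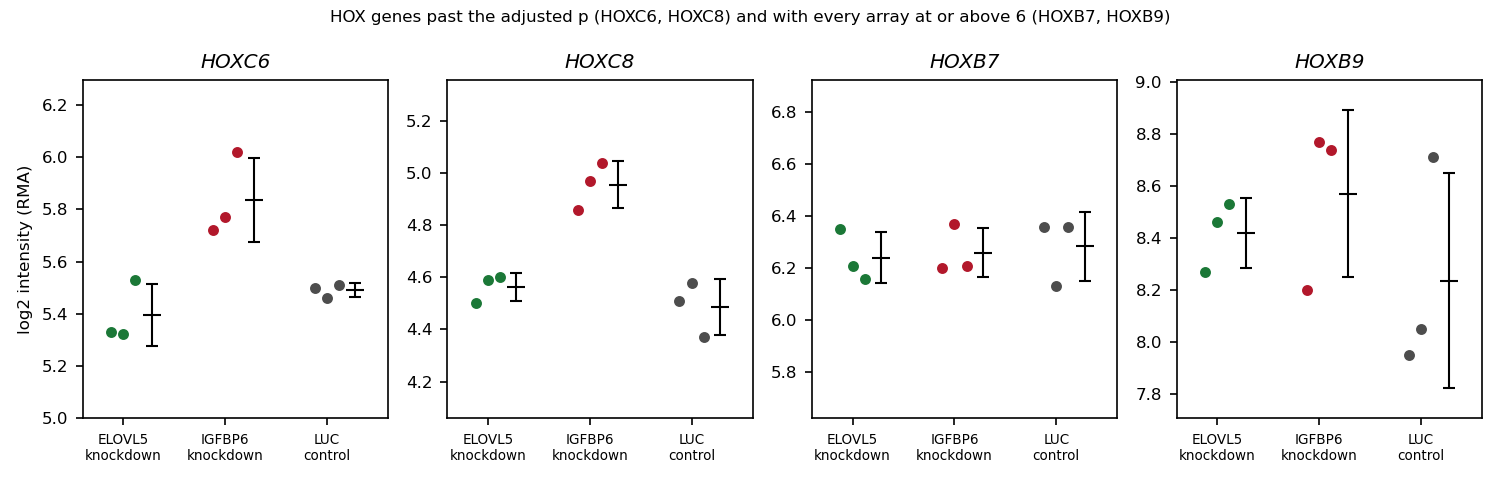
Log2 intensity (y axis, a separate range of the same height in each panel) of *HOXC6*, *HOXC8*, *HOXB7* and *HOXB9* on the 3 arrays of each group, with the mean and SD (n = 3) drawn to the right of the points. *HOXC8* and *HOXC6* were higher in *IGFBP6* knockdown cells (means 4.96 and 5.84) than in LUC cells (4.49 and 5.49) with no overlap, *HOXB7* stayed within 6.13 to 6.37, and *HOXB9* overlapped between all groups.

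The other 7 HOXC genes did not pass the test. *HOXC5* had 4.13, 4.19 and 4.35 in *IGFBP6* knockdown cells, against 4.15, 3.85 and 3.92 in LUC cells (0.25, adjusted p = 0.191). *HOXC4* had 5.11, 4.82 and 4.75 in *IGFBP6* knockdown cells, against 5.12, 5.17 and 5.01 in LUC cells (-0.21, adjusted p = 0.255). *HOXC5* and *HOXC4*, which share their annotated start with *HOXC6*, thus had values that overlapped between the groups and fold changes of opposite sign. The 5′ genes of the cluster, *HOXC9*, *HOXC10*, *HOXC11*, *HOXC12* and *HOXC13*, had log2 fold changes of -0.04, 0.00, -0.14, -0.04 and 0.06.

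In the HOXB cluster the log2 fold changes after *IGFBP6* knockdown were -0.05 to 0.33. *HOXB5* had 4.79, 4.64 and 4.54 in *IGFBP6* knockdown cells, against 4.49, 4.50 and 4.46 in LUC cells, which did not overlap (0.17, adjusted p = 0.299). The groups of *HOXB6* overlapped (0.20, adjusted p = 0.214). *HOXB13*, the most 5′ gene of the cluster, which is known for its expression in the prostate, had 4.68, 4.29 and 4.62 in *IGFBP6* knockdown cells, against 4.55, 4.57 and 4.47 in LUC cells (0.00).

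In the HOXD cluster the log2 fold changes were -0.08 to 0.20. *HOXD11*, a 5′ gene of the cluster with a role in the limb skeleton, had 4.95, 4.79 and 4.79 in *IGFBP6* knockdown cells, against 4.63, 4.65 and 4.65 in LUC cells (0.20, unadjusted p = 0.0325, adjusted p = 0.136). The groups did not overlap. *HOXD1*, at the 3′ end, had 5.12, 5.70 and 5.47 in *IGFBP6* knockdown cells, against 5.23, 5.23 and 5.42 in LUC cells (0.14, adjusted p = 0.622). *HOXA2*, the only member of the HOXA cluster, had 4.33, 4.44 and 4.36 in *IGFBP6* knockdown cells, against 4.31, 4.38 and 4.40 in LUC cells (0.01, adjusted p = 0.956).

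In all, the arrays of *IGFBP6* knockdown and LUC cells did not overlap for 4 HOX genes, all higher (37.7% of all genes in either direction, and 18.8% of those with a mean below 6). Counting the higher direction alone, these shares were 18.2% and 9.88%. For 23 of the 25 the 95% interval lay within 1.5 times (67.6% of all genes, 88.2% of those with a mean below 6), the exceptions being *HOXC8* and *HOXB9*. The array of *IGFBP6* knockdown replicate 1 had the highest value of its group for 17 of the 25 HOX genes, and its median over all transcript clusters was 5.10, beside 4.95 and 5.02 on the other two. For *HOXC8* and *HOXC6* this array had the lowest value of its group.

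**Figure D3:**
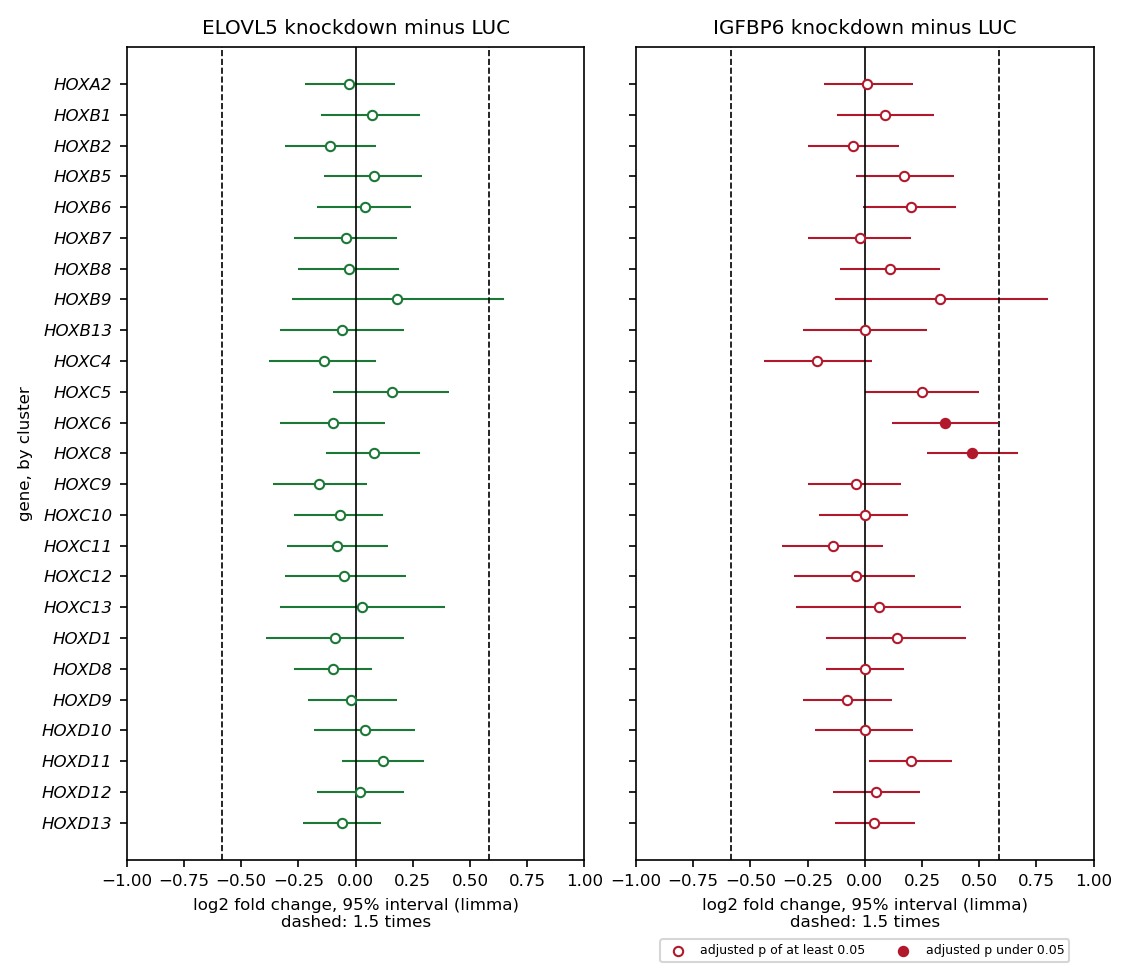
Log2 fold change (x axis) with its 95% interval for the 25 HOX genes (y axis, by cluster), for *ELOVL5* knockdown minus LUC (left) and *IGFBP6* knockdown minus LUC (right). Filled points mark an adjusted p under 0.05, found only for *HOXC6* (0.35) and *HOXC8* (0.47) after *IGFBP6* knockdown, and dashed lines mark 1.5 times.

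Compared by cluster, the median log2 fold changes were small in both knockdowns. After *ELOVL5* knockdown they were -0.03 for *HOXA2* alone, 0.00 over the 8 HOXB genes, -0.07 over the 9 HOXC genes and -0.02 over the 7 HOXD genes. After *IGFBP6* knockdown they were 0.01 for *HOXA2*, 0.10 for HOXB, 0.00 for HOXC and 0.04 for HOXD, beside a median of -0.01 over all genes. The mean over the 9 HOXC genes was 4.98, 4.86 and 4.95 in *IGFBP6* knockdown cells, against 4.94, 4.85 and 4.76 in LUC cells, which overlapped. The mean over the 8 HOXB genes was 5.25, 5.14 and 5.20 in *IGFBP6* knockdown cells, against 5.10, 5.04 and 5.14 in LUC cells, which touched at 5.14. The mean over the 7 HOXD genes was 4.73, 4.71 and 4.71 in *IGFBP6* knockdown cells, against 4.65, 4.66 and 4.68 in LUC cells, which did not overlap but differed by far less than 1.5 times. Genes of a cluster are neighbours and the 3 arrays of a group come from 1 culture, so these means carry no test.

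In the direct comparison of the knockdowns *HOXC8* and *HOXC6* again passed the adjusted p. None of the 25 HOX genes was called higher or lower in *IGFBP6* knockdown than in *ELOVL5* knockdown cells (13.1% of all genes were called, and 2.85% of those with a mean below 6), and 2 were higher at an adjusted p alone (22.7% of all genes in either direction, and 6.98% of those with a mean below 6). Counting the higher direction alone, 11.4% of all genes and 4.38% of those with a mean below 6 passed at an adjusted p. *HOXC8* had 4.86, 4.97 and 5.04 in *IGFBP6* knockdown cells, against 4.50, 4.59 and 4.60 in *ELOVL5* knockdown cells, a log2 difference of 0.39 (SE 0.09, adjusted p = 0.0148). *HOXC6* had 5.72, 5.77 and 6.02 in *IGFBP6* knockdown cells, against 5.33, 5.32 and 5.53 in *ELOVL5* knockdown cells, a log2 difference of 0.44 (SE 0.10, adjusted p = 0.0153). Both differences exceeded the spread between arrays. That of *HOXC8* was above the adjusted p threshold without *ELOVL5* knockdown replicate 1 (0.062) or *IGFBP6* knockdown replicate 3 (0.0576), and that of *HOXC6* without *IGFBP6* knockdown replicate 3 or either of *ELOVL5* knockdown replicates 1 and 2. The log2 differences of the 25 genes ran from -0.06 (*HOXC4*) to 0.44 (*HOXC6*), 21 of them above 0, with a median of 0.07 beside 0.02 over all genes. The arrays did not overlap for 6 genes, all higher in *IGFBP6* knockdown cells (39.8% of all genes in either direction, and 22.3% of those with a mean below 6). Counting the higher direction alone, these shares were 20.9% and 14.2%. The 2 comparisons with LUC share their control arrays.

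The HOXC genes were then set beside the genes around them, because *IGFBP6* itself lies near the cluster. For each cluster the 40 nearest protein-coding genes with a mean log2 intensity of at least 6 over the 9 arrays were taken, with the HOX genes left out. Around HOXC, where they span 3.25 Mb (chr12:52897191-56144674), the median log2 fold change after *IGFBP6* knockdown was 0.46. There 35 of the 40 genes were above 0, and 12 were called higher and 1 lower, where 13.6% of all genes with a mean of at least 6 were called higher and 15.9% lower. The median around the other clusters was -0.14 for HOXA, 0.05 for HOXB and 0.14 for HOXD. After *ELOVL5* knockdown the median of the 40 genes around HOXC was 0.09, with 30 above 0. A gene can reach a mean of 6 through the group in which it is high, and 4 of the 40 (*TNS2*, *NCKAP1L*, *TMT1B* and *ERBB3*) had a mean below 6 in LUC cells. Over the other 36 the median after *IGFBP6* knockdown was 0.42, with 31 above 0, 10 called higher and 1 lower, a choice made after the values had been seen. *HOXC8* (0.47) and *HOXC6* (0.35), named because they passed the adjusted p, had the largest rises of the HOXC genes after *IGFBP6* knockdown. The other 7 HOXC genes, of low signal, had -0.21 to 0.25. Whether the HOXC genes share in the change of their neighbours was not tested.

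When the median deviation of the 40 neighbours was subtracted on each array, the log2 fold change after *IGFBP6* knockdown was 0.05 for *HOXC8* (adjusted p = 0.729) and -0.08 for *HOXC6* (adjusted p = 0.651). The differences between *IGFBP6* and *ELOVL5* knockdown cells became 0.08 for *HOXC8* (adjusted p = 0.558) and 0.13 for *HOXC6* (adjusted p = 0.449). Both genes were chosen because they had passed, and all 40 neighbours were used, so these values are no test of a cause. On this scale, relative to their region, *HOXC4* (-0.63, adjusted p = 0.0038), *HOXC9* (-0.47), *HOXC10* (-0.43), *HOXC11* (-0.56) and *HOXC12* (-0.47) were lower at an adjusted p under 0.05. None of these 5 passed at an unadjusted p under 0.05 without the subtraction, which by its construction takes the change of the neighbours away from every gene of the region, those near background included. The share of all genes that passed on this scale is not given here. This form of subtraction was chosen after the values had been seen.

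**Figure D4:**
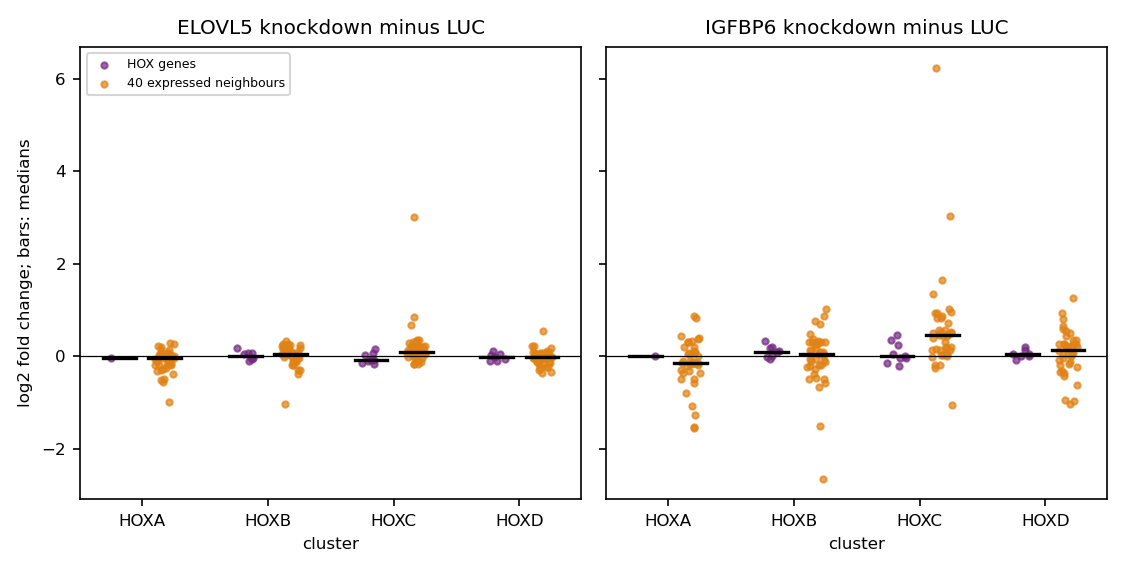
Log2 fold change (y axis) of the HOX genes of each cluster (purple) and of the 40 nearest expressed genes around it (orange), 1 point per gene with bars at the medians, for *ELOVL5* knockdown minus LUC (left) and *IGFBP6* knockdown minus LUC (right). The neighbours of HOXC have a median of 0.46 after *IGFBP6* knockdown, the highest of the 4 regions, while the median of the 9 HOXC genes is 0.00.

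Of the genes directly flanking the clusters (5 on each side), *SMUG1* beside HOXC, which encodes a uracil DNA glycosylase, had 8.25, 8.22 and 8.13 in *IGFBP6* knockdown cells, against 7.49, 7.49 and 7.15 in LUC cells (0.82, adjusted p = 0.000369). It was the only one of 7 measured there to be called. After *IGFBP6* knockdown 16.3% of all genes were called, and 29.5% of those with a mean of at least 6. Such a mean was reached by 9 of the measured flanking genes of HOXA, 7 of HOXB, 5 of HOXC and 8 of HOXD. Beside HOXA, 2 of 10 were called, both lower, namely *NFE2L3*, which encodes a transcription factor of the cap'n'collar family (-1.54, adjusted p = 0.00104), and *SNX10*, which encodes a sorting nexin of endosomes (-1.07, adjusted p = 0.000278). Beside HOXB, 1 of 10 was called, *UBE2Z*, which encodes a ubiquitin-conjugating enzyme (0.77, adjusted p = 0.00054). Beside HOXD, 2 of 9 were called, *CHRNA1*, which encodes a subunit of the muscle acetylcholine receptor (0.66, adjusted p = 0.00142), and *LNPK*, which shapes the endoplasmic reticulum (-0.62, adjusted p = 0.00322, below 1.5 times without *IGFBP6* knockdown replicate 1 or LUC replicate 3). None of these flanking genes was called after *ELOVL5* knockdown (1.36% of all genes were called). In *IGFBP6* knockdown compared with *ELOVL5* knockdown cells, *NFE2L3* was lower (-1.51, adjusted p = 0.00158), and *CHRNA1* (0.93, adjusted p = 0.000231), *SMUG1* (0.62, adjusted p = 0.00294) and *UBE2Z* (0.59, adjusted p = 0.00366) were higher, *UBE2Z* by less than 1.5 times without *ELOVL5* knockdown replicate 1 or *IGFBP6* knockdown replicate 1 or 2.

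Of the noncoding and antisense genes of the clusters, 19 of 27 listed were measured, and none was called in any of the 3 comparisons. Among all genes with a mean below 6, 0.439% were called after *ELOVL5* knockdown, 3.99% after *IGFBP6* knockdown and 2.85% between the knockdowns. *HOTAIR*, transcribed from the HOXC cluster, had 4.98, 4.64 and 4.80 in *IGFBP6* knockdown cells and 4.84, 4.80 and 4.85 in *ELOVL5* knockdown cells, against 4.82, 4.88 and 4.86 in LUC cells, with overlapping groups. *HAGLR*, an antisense RNA beside *HOXD1*, was the only one whose mean was at or above 6, with 7.22, 7.36 and 7.41 in *IGFBP6* knockdown cells and 7.31, 7.29 and 7.29 in *ELOVL5* knockdown cells, against 7.37, 7.26 and 7.53 in LUC cells. At an adjusted p alone 1 passed after *IGFBP6* knockdown (8.36% of all genes with a mean below 6 did), *MIR615*, the gene of miR-615 within *HOXC5*. It had 3.73, 3.82 and 3.56 in *IGFBP6* knockdown cells, against 4.16, 4.02 and 4.23 in LUC cells (-0.43, adjusted p = 0.0338). The groups did not overlap, all values were far below 6, and *HOXC5* around it had a positive difference (0.25).

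For the genes of miR-196a the 3 groups overlapped. *MIR196A1*, in the HOXB cluster, had 5.93, 5.63 and 6.08 in *IGFBP6* knockdown cells and 5.92, 5.77 and 5.81 in *ELOVL5* knockdown cells, against 5.80, 5.80 and 5.53 in LUC cells. *MIR196A2*, in the HOXC cluster, had 5.36, 3.96 and 4.57 in *IGFBP6* knockdown cells and 4.81, 5.02 and 4.90 in *ELOVL5* knockdown cells, against 5.00, 5.00 and 4.95 in LUC cells. The arrays read the transcripts of these genes, not the mature microRNAs.

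Of the HOX cofactors and regulators listed, 1 of 8 TALE cofactors, 7 of 25 Polycomb genes, 6 of 18 MLL complex and demethylase genes and 1 of 15 retinoic acid genes were called after *IGFBP6* knockdown, and none of them after *ELOVL5* knockdown. Of the TALE cofactors 8 of 9 were measured and 1 was called after *IGFBP6* knockdown, *PBX4*, with 6.27, 6.0 and 6.10 in *IGFBP6* knockdown cells, against 6.90, 7.01 and 7.08 in LUC cells (-0.87, SE 0.09, adjusted p = 0.000101). *PBX2* was higher at an adjusted p alone after *ELOVL5* knockdown (0.56, adjusted p = 0.0479), with 7.87, 7.98 and 7.95 in *ELOVL5* knockdown cells, against 7.22, 7.58 and 7.31 in LUC cells.

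Of the Polycomb genes 25 of 30 were measured, and 3 were called higher and 4 lower after *IGFBP6* knockdown. Of all genes with a mean of at least 6, 29.5% were called. Such a mean was reached by 5 of the TALE cofactors, 24 of the Polycomb genes, 18 of the MLL complex and demethylase genes and 5 of the retinoic acid genes. *PHC1*, which encodes a subunit of the Polycomb repressive complex that binds methylated histone, had 10.11, 10.56 and 10.16 in *IGFBP6* knockdown cells, against 7.99, 8.32 and 8.47 in LUC cells (2.02, SE 0.16, adjusted p = 1.09e-05). *AEBP2*, an accessory protein of the complex that places the mark, was also higher (1.14, SE 0.10, adjusted p = 2.97e-05). *EZH2*, the methyltransferase of that complex, had 10.47, 10.59 and 10.45 in *IGFBP6* knockdown cells, against 11.44, 11.22 and 11.23 in LUC cells (-0.79, SE 0.09, adjusted p = 0.000196), and *RYBP* was lower by a similar amount (-0.80, adjusted p = 0.00306). Subunits of the complexes thus moved in both directions.

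Of the MLL complex and demethylase genes 18 of 19 were measured, and 2 were called higher and 4 lower. *KDM6A*, a demethylase of the Polycomb mark, had 8.69, 8.69 and 8.83 in *IGFBP6* knockdown cells, against 9.93, 9.83 and 9.68 in LUC cells (-1.08, SE 0.09, adjusted p = 2.39e-05). *NCOA6* (-1.06, adjusted p = 0.00132, and -0.51 over the mean of its rows) and *PAXIP1* (-0.75, adjusted p = 0.00196), both partners of MLL enzymes, were lower, and *MEN1*, which encodes menin, was higher (0.66, adjusted p = 0.000356). In the retinoic acid list 15 of 17 genes were measured and 1 was called, *ALDH1A3*, which makes retinoic acid (-0.59, adjusted p = 0.0101). Its decrease was below 1.5 times without *IGFBP6* knockdown replicate 2 or 3 or LUC replicate 1 or 2. None of the 11 related homeobox genes outside the clusters (CDX, GSX, PDX, EVX, GBX and MNX genes) was called, and none passed at an unadjusted p under 0.05 in either comparison with LUC. Only 1 of them had a mean of at least 6. Among all genes with a mean below 6, 3.99% were called after *IGFBP6* knockdown and 0.439% after *ELOVL5* knockdown. At an unadjusted p under 0.05, 14.9% and 5.86% of them passed.

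In *IGFBP6* knockdown compared with *ELOVL5* knockdown cells, *PBX4* (-0.79, adjusted p = 0.000286), *JARID2* (-0.92, adjusted p = 0.000371), *MTF2* (-0.72, adjusted p = 0.000719) and *KDM6A* (-0.75, adjusted p = 0.000417) were lower, and *PHC1* (1.61, adjusted p = 7.73e-05) and *AEBP2* (0.83, adjusted p = 0.000384) were higher. *NCOA6* was lower too (-0.89, adjusted p = 0.00498), but by less than 1.5 times over the mean of its rows (-0.50). *JARID2* and *MTF2* encode accessory proteins of the complex that places the Polycomb mark. *KMT2B*, an MLL enzyme, was at the threshold (-0.59, adjusted p = 0.0382), and its call was lost without *ELOVL5* knockdown replicate 1, 2 or 3, *IGFBP6* knockdown replicate 1 or 3, or LUC replicate 2. *PAXIP1* (-0.70, adjusted p = 0.00363) was below 1.5 times without *IGFBP6* knockdown replicate 1 (-0.57). With the deviation of the 40 neighbours of each gene subtracted, the changes after *IGFBP6* knockdown of *PBX4* (-0.21, adjusted p = 0.196), *EZH2* (-0.34, adjusted p = 0.015), *PAXIP1* (-0.17, adjusted p = 0.259), *ALDH1A3* (-0.37, adjusted p = 0.0816), *SMUG1* (0.42, adjusted p = 0.0142) and *CHRNA1* (0.53, adjusted p = 0.00281) were below 1.5 times, while *PHC1* (1.55), *AEBP2* (0.67), *RYBP* (-0.86), *KDM6A* (-1.05), *NCOA6* (-0.82) and *MEN1* (0.74) were still called. Between the knockdowns the same subtraction left *PBX4* (-0.26), *AEBP2* (0.42), *MTF2* (-0.10), *PAXIP1* (-0.22), *KMT2B* (-0.22) and *SMUG1* (0.32) below 1.5 times. Still called there were *PHC1* (1.27), *JARID2* (-0.68), *KDM6A* (-0.82), *NCOA6* (-0.67), *NFE2L3* (-1.50), *CHRNA1* (0.79) and *UBE2Z* (0.61).

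**Figure D5:**
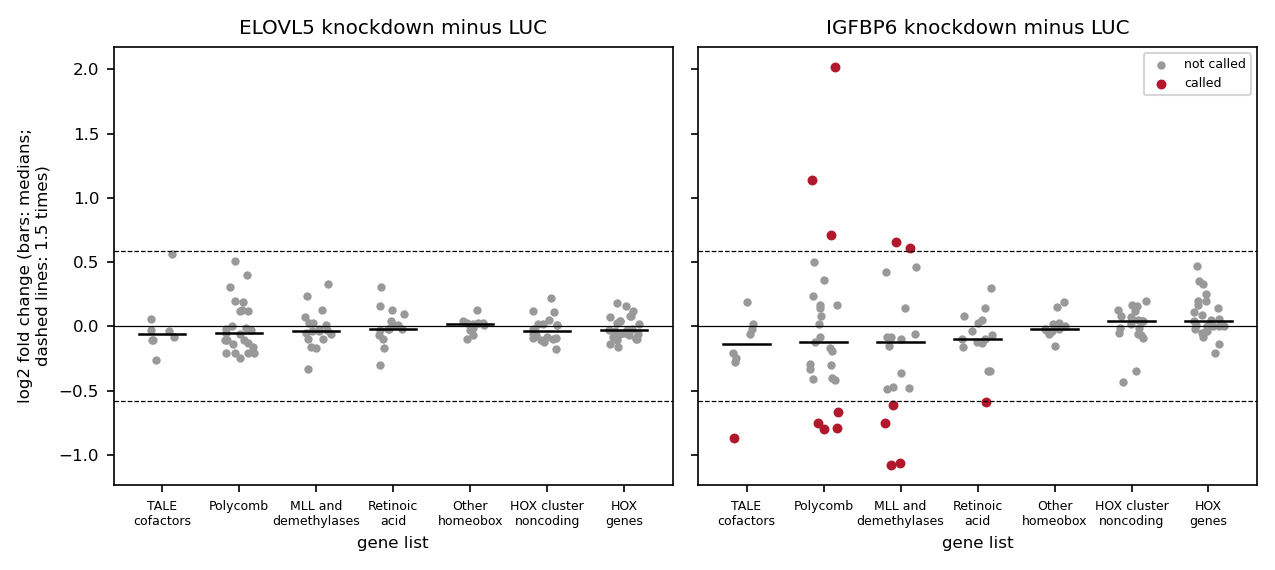
Log2 fold change (y axis) of each measured gene of the lists of HOX cofactors, regulators, related homeobox genes and noncoding genes, and of the 25 HOX genes, for *ELOVL5* knockdown minus LUC (left) and *IGFBP6* knockdown minus LUC (right). Red points are called and bars are medians: 7 Polycomb genes, 6 MLL and demethylase genes, 1 TALE gene and 1 retinoic acid gene were called after *IGFBP6* knockdown, beside none of the HOX genes. Of all genes with a mean of at least 6, 29.5% were called there, and 3.99% of those with a mean below 6, among which were 23 of the 25 HOX genes.

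The markers of the labelled line were met in part. Of the 8 genes listed as present in MDA-MB-231, 7 had a mean of at least 6, among them *VIM* with 14.80 to 15.30 over the 9 arrays. After *IGFBP6* knockdown 4 of the 8 were called lower, *CD44* (-0.67), *CAV1* (-0.88), *CAV2* (-0.71) and *AXL* (-0.62), and 1 higher, *EGFR* (0.80), and none was called after *ELOVL5* knockdown. Among all genes with a mean of at least 6, 29.5% were called after *IGFBP6* knockdown and 2.35% after *ELOVL5* knockdown. The estrogen receptor gene *ESR1* (4.55 to 4.79) and the progesterone receptor gene *PGR* (4.03 to 4.23) were low. Of the 7 measured genes listed as low or absent in the line, 4 had a mean of at least 6, among them the epithelial genes *KRT19* (9.48 to 10.70) and *EPCAM* (7.46 to 8.07). Another of the 4, *FOXA1* (mean 6.06), reached 6 only through the *IGFBP6* knockdown arrays, and its mean in LUC cells was 5.02. *FOXA1*, a transcription factor of luminal breast cells, was called higher after both knockdowns, with 7.10, 7.64 and 7.45 in *IGFBP6* knockdown cells and 5.77, 5.71 and 5.83 in *ELOVL5* knockdown cells, against 5.01, 5.09 and 4.96 in LUC cells (2.38 and 0.75). It was the only 1 of these 7 genes called higher after *IGFBP6* knockdown, and 3 were called lower, *CDH1* (-0.77), *GATA3* (-0.76) and *KRT19* (-0.70).

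None of 5 fibroblast markers, 1 of 4 endothelial markers (*KDR*) and 1 of 4 leukocyte markers (*CD68*) had a mean of at least 6. *CD68*, a lysosomal protein of macrophages, was higher after *IGFBP6* knockdown, with 14.43, 14.41 and 14.05 in *IGFBP6* knockdown cells, against 12.06, 12.33 and 11.84 in LUC cells. *PTPRC*, the common leukocyte antigen, was lower (-0.77, adjusted p = 0.000408), with 4.58, 4.46 and 4.50 in *IGFBP6* knockdown cells, against 5.29, 5.46 and 5.10 in LUC cells. *CD3E* (-0.03) and *LYZ* (0.03) had values of 4.17 to 4.75 on all 9 arrays and did not pass the test. The median log2 fold change of the leukocyte list was 0.00. Its mean level was 6.84 to 7.08 in *IGFBP6* knockdown cells, against 6.46 to 6.68 in LUC cells, and *CD68* was the only member called higher. The part of these genes in the HOX values was not tested.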

How the data were processed

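Total RNA of MDA-MB-231 cultures (3 RNA samples per group) was hybridised to Human Transcriptome Arrays. Per the labels and the paper's methods, the authors summarised the arrays with RMA in Transcriptome Analysis Console 4.0.0.25, and the deposited table holds log2 intensity per transcript cluster with 2 decimals; the RMA options and the annotation build are not given in the sources used here. RMA places the arrays on a common scale, and differences of low signals are compressed by background. The values were used as deposited.

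Gene symbols came from the platform annotation table and positions, promoters and microRNAs from RefSeq (GRCh38.p14). Transcript clusters with several symbols were assigned to no gene, and of a gene with several rows the row with the highest mean over the 9 arrays was used; no HOX gene had more than 1. Differences were tested with limma 3.58.1 (lmFit and eBayes) in R 4.3.3 on all 9 arrays in 1 fit, two-sided, with Benjamini-Hochberg adjustment over all transcript clusters. Calls needed an adjusted p below 0.05 together with a 1.5-fold change or more. The fit was tested on simulated data. The test differs from the ANOVA of the study's software, which was not used here. The number of arrays limits the precision.

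The HOX genes, the gene lists and the tests were chosen with earlier results of these data known. Each of the 25 HOX genes with a transcript cluster of its own is accounted for. Of the other lists at most 4 called genes per comparison, those with the largest change, are named. Named as well are *ELOVL5*, *IGFBP6* and, chosen after their values were seen, *HOTAIR*, *HAGLR*, *MIR615*, *MIR196A1*, *MIR196A2*, *PBX2*, *TNS2*, *NCKAP1L*, *TMT1B*, *ERBB3* and the cell type markers. Plots were made in Python 3.11.15 with matplotlib 3.10.9.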

Additional observations from a re-analysis of the deposited data

Results flagged for a closer look

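*HOXC6* was higher in *IGFBP6* knockdown than in *ELOVL5* knockdown cells by 0.44 on the log2 scale (adjusted p = 0.0153 by limma, 3 of 3 arrays higher). It stands here because the effects of the 2 knockdowns on this gene, 0.35 after *IGFBP6* knockdown and -0.10 after *ELOVL5* knockdown, differed in a test of the difference itself.

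*HOXC8* was higher in *IGFBP6* knockdown than in *ELOVL5* knockdown cells by 0.39 (adjusted p = 0.0148, 3 of 3 arrays higher) and stands here for the same reason, with 0.47 after *IGFBP6* knockdown and 0.08 after *ELOVL5* knockdown. Both genes lie in the region of chromosome 12 whose 40 expressed genes had a median difference of 0.30 between *IGFBP6* and *ELOVL5* knockdown cells. A link between the genes and the region was not tested.

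The transcript cluster that carries the symbols MIR10B, *HOXD3* and *HOXD4* together, which belongs to no single gene and entered none of the counts of HOX genes, had 6.01, 6.10 and 6.06 in *IGFBP6* knockdown cells, against 5.61, 5.73 and 5.82 in LUC cells. The groups did not overlap, and the log2 fold change of 0.34 (adjusted p = 0.0227) was below 1.5 times. In *ELOVL5* knockdown cells it had 5.90, 5.78 and 5.90 (0.14 against LUC, adjusted p = 0.638). The transcript cluster of MIR10A, *HOXB3* and *HOXB4* went the other way without overlap. It had 4.95, 4.87 and 4.94 in *IGFBP6* knockdown cells, against 5.04, 5.18 and 5.06 in LUC cells (-0.17, adjusted p = 0.196). That of *HOXA3* and *HOXA6* (-0.03) and that of *HOXA9*, MIR196B and *HOXA10-HOXA9* (0.02) overlapped between these groups. Groups of 3 arrays were too small to look for single arrays that stand apart.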

How the results depend on the processing

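Over all alternatives 314 of the 342 counts of called HOX genes and cluster medians moved by less than the spread between arrays or, for counts, by less than 1.5 times, and 28 moved. No HOX gene was called under the unmoderated fit, the fit on the arrays of 2 groups only, quantile normalization, centring of each array, array weights, adjustment over genes only, a fold of 2, the mean over rows or the filter on dim transcript clusters, nor when any 1 array was left out. At an adjusted p with no fold threshold 2 HOX genes were higher in *IGFBP6* knockdown than in LUC cells, and 2 than in *ELOVL5* knockdown cells. *HOXC8* stayed under the adjusted p of 0.05 after *IGFBP6* knockdown (0.41 to 0.52, adjusted p 0.00139 to 0.0213) under the alternatives that measured it, except the 2 that subtract neighbours. The adjusted p of *HOXC6* after *IGFBP6* knockdown was 0.0847 in the fit of 2 groups and 0.0694 with centring.

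Subtracting the median level of the 40 expressed neighbours on each array moved the most values. It turned the direction of *HOXC6* (-0.35 after *IGFBP6* knockdown and -0.35 against *ELOVL5* knockdown), *HOXC8* (-0.23 and -0.41), *PBX4* (0.05), *MTF2* (0.32 against *ELOVL5* knockdown) and *SMUG1* (-0.18 against *ELOVL5* knockdown). With it 6 HOX genes were called lower after *IGFBP6* knockdown and 7 against *ELOVL5* knockdown. The share of all genes called is not given for this form or for the second form below, so these counts cannot be set against it. The cluster medians became -0.14 (HOXA), 0.14 (HOXB) and 0.02 (HOXC) after *ELOVL5* knockdown, -0.18 (HOXA), 0.23 (HOXB), -0.70 (HOXC) and -0.18 (HOXD) after *IGFBP6* knockdown, and -0.04 (HOXA), -0.73 (HOXC) and -0.17 (HOXD) against *ELOVL5* knockdown. This median level can pass from 1 neighbour to another between arrays, so a second form, added after seeing the data, subtracted the median deviation of the neighbours from their own means. It turned *HOXC6* after *IGFBP6* knockdown (-0.08), called 1 HOX gene lower (*HOXC4*), and gave medians of -0.18 (HOXC) after *ELOVL5* knockdown, 0.13 (HOXA), -0.43 (HOXC) and -0.08 (HOXD) after *IGFBP6* knockdown, and -0.24 (HOXC) and -0.04 (HOXD) against *ELOVL5* knockdown.

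Of the other medians, HOXC after *ELOVL5* knockdown was 0.03 with the filter on dim transcript clusters (1 gene left). HOXD was 0.02 after *ELOVL5* knockdown and 0.05 between the knockdowns with quantile normalization, and 0.04 between the knockdowns with array weights. Leaving out single arrays gave -0.09 to 0.09 for HOXC after *IGFBP6* knockdown, and as little as 0.03 for HOXD between the knockdowns, without *IGFBP6* knockdown replicate 1.

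The replicate numbers were not used to pair the arrays in the main fit. With the replicate block 0 HOX genes were called in any comparison, as without it, so this count cannot show whether the arrays were paired. Over all genes 321, 3682 and 2997 were called with the block, against 306, 3665 and 2952 without it (*ELOVL5* knockdown, *IGFBP6* knockdown, and *IGFBP6* against *ELOVL5* knockdown). Same-numbered deviations correlated at 0.01, 0.18 and -0.06 for *ELOVL5* knockdown and LUC, at 0.33, 0.02 and 0.13 for *IGFBP6* knockdown and LUC, and at 0.02, 0.10 and -0.01 between the knockdowns, and 5 of 9 arrays correlated best with their own number. These values do not exclude a pairing. Signal near background in 23 of the 25 HOX genes (mean below 6) limits what their intervals can show.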
